A study of Bos taurus with 12 samples.

Results

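The microRNAs (miRNAs) bta-miR-103 and bta-miR-107 were described in mammary biopsies of 12 Chinese Holstein cows, 1 small RNA library per cow. The pair was chosen by name, and not by its measured values, from the deposited expression table. It made up 2 of the 388 mature miRNAs and 3 of the 426 precursor entries in that table, and both members were measured in 12 of 12 libraries. The libraries formed 4 groups of 3 cows, in which HP and LP were cows with a high or a low milk protein percentage sampled in lactation, and HD and LD were cows with a high or a low percentage sampled in the non-lactating period. The labels name no treatment or allele for any group. The protein classes rested on the herd records of each cow's preceding lactation, and the cows of the 2 stages were different animals. The biopsies were not inspected by eye, according to the study.

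MiR-103 and miR-107 are close relatives found throughout vertebrates. They carry the same seed, the stretch near the 5′ end through which a miRNA recognises its target mRNAs, and their mature sequences differ near the 3′ end. Both are encoded within genes for pantothenate kinases, the enzymes that start the synthesis of coenzyme A. They are known for repressing DICER1, which encodes the enzyme that cuts miRNA precursors, and CAV1, whose product caveolin-1 supports insulin signalling in fat cells and liver. In ruminant mammary cells miR-103 has been linked to milk fat synthesis. In the RefSeq annotation of ARS-UCD2.0, the 3 of 3 matched precursor genes lay within the bounds of 3 pantothenate kinase genes, with bta-mir-103-1 inside PANK3, bta-mir-103-2 inside PANK2 and bta-mir-107 inside PANK1.

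Values were given by the authors as TPM, which here are reads scaled to the library total (RPM) without any correction for length. The smallest steps between values implied 6026797 to 13374171 reads per lactation library and 11047701 to 23577942 per non-lactating library. Between 24424 and 55826 reads stood behind a bta-miR-103 value and between 4867 and 20102 behind a bta-miR-107 value. The counting error of the smallest of these, 1.43%, was far below the differences between cows. A count of 3 reads corresponded to 0.127 to 0.498 TPM, and such errors and floors cover counting only. For comparison between libraries, TPM values were divided by a median-of-ratios size factor, and the result is called normalized TPM here. The size factors ran from 0.764 to 1.50, with replicate 1 of HD and replicate 1 of LD at 1.50.

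Both miRNAs were abundant, and bta-miR-103 was the more abundant of the pair in 12 of 12 libraries. In HP, bta-miR-103 had 4272, 4179 and 3605 normalized TPM in replicates 1 to 3. In LP it had 3052, 3443 and 4902 normalized TPM. The cows of HP lay inside the range of LP, which held both the lowest and the highest lactation value. In HD, bta-miR-103 had 2111, 2272 and 1685 normalized TPM. In LD it had 1808, 1655 and 1664 normalized TPM. Each of the 6 non-lactating libraries was below each of the 6 lactation libraries, and LD was the tightest group, with a mean of 1709 ± 85.7 (SD, n = 3).

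The bta-miR-107 levels were lower and more scattered. In HP, bta-miR-107 had 851, 1402 and 946 normalized TPM in replicates 1 to 3. In LP it had 669, 853 and 1158 normalized TPM. Replicate 2 of HP was the highest of the 12 libraries, and replicate 1 of LP was the lowest in lactation. In HD, bta-miR-107 had 513, 818 and 540 normalized TPM. In LD it had 577, 446 and 478 normalized TPM. Replicate 2 of HD stood above the other non-lactating libraries and above replicate 1 of LP, so that the stages overlapped for this miRNA.

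**Figure D1:**
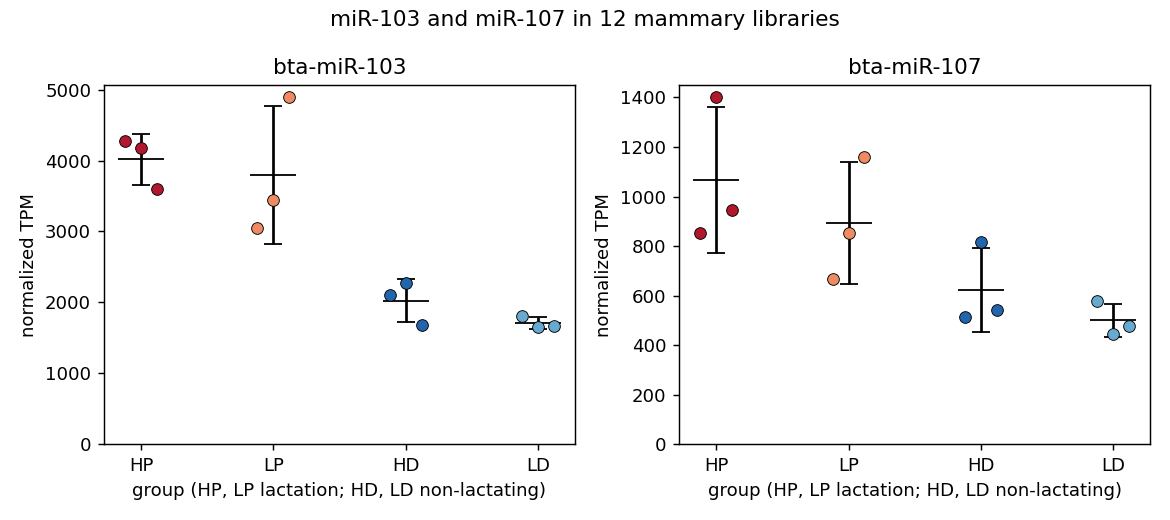
Normalized TPM (TPM divided by the library's size factor, vertical axis) of bta-miR-103 (left) and bta-miR-107 (right) in the 4 groups; each point is 1 cow, horizontal lines are group means and bars are SD (n = 3). The lactation libraries of bta-miR-103, 3052 to 4902, all lie above the non-lactating ones, 1655 to 2272, while replicate 2 of HD (818) places bta-miR-107 of the 2 stages in overlap.

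The group means of both miRNAs had the same order, HP above LP above HD above LD. For bta-miR-103 the means were 4019 ± 361, 3799 ± 975, 2023 ± 303 and 1709 ± 85.7 normalized TPM (SD, n = 3). Of the neighbours in that order, LP and HD did not overlap, with an exact permutation p of 0.1, which is the smallest that 3 against 3 libraries can give. HP and LP overlapped (exact permutation p = 0.8), as did HD and LD (exact permutation p = 0.2). For bta-miR-107 the means were 1067 ± 294, 893 ± 247, 624 ± 169 and 500 ± 68.3 normalized TPM (SD, n = 3). All of its neighbouring groups overlapped, with exact permutation p-values of 0.6 for HP and LP, 0.2 for LP and HD, and 0.4 for HD and LD. These tests were two-sided, and the shared order was therefore not separated step by step by the spread between cows.

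Among the 388 miRNAs of a library, bta-miR-103 ranked between 27 and 40 during lactation and between 39 and 52 outside it. The ranks of bta-miR-107 were 51 to 76 and 69 to 86. Of the TPM summed over the 388 kept entries, 1 per mature miRNA, the share was 0.159% to 0.541% for bta-miR-103 and 0.0427% to 0.173% for bta-miR-107. On normalized TPM the spread of bta-miR-103 between cows was below the median of miRNAs with a mean of at least 100 TPM. Over the 6 non-lactating libraries its coefficient of variation was 14.1%, against a median of 28.4% over the 132 miRNAs with a mean of at least 100 TPM, of which 6 varied less. Over the 6 lactation libraries it was 17.1%, against a median of 27.9%, and 28 of 132 varied less. The bta-miR-107 values, 26.6% for lactation and 23.8% for the non-lactating period, were nearer to these medians.

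The tightness of the non-lactating values depended on the scaling between libraries. On deposited TPM the coefficient of variation of bta-miR-103 over the 6 non-lactating libraries was 39.1%. As deposited, bta-miR-103 had 3167, 2533 and 1572 TPM in HD. In LD it had 2712, 1264 and 1286 TPM. Replicate 1 of LD was thus above both other LD libraries before scaling and was near them afterwards. The coefficient of variation of bta-miR-103 within LD was 47.3% on deposited TPM and 5.01% on normalized TPM. Within HP the opposite held, with 1.67% on deposited and 8.996% on normalized TPM. In HP the deposited values were 4053, 4098 and 3965 TPM. In LP they were 2457, 3919 and 4595 TPM. Replicate 1 of LP was then below 3 non-lactating libraries, and the stages overlapped on this scale. For bta-miR-107 the deposited TPM ran from 538 to 1375 across lactation and from 340 to 912 across non-lactating libraries.

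**Figure D2:**
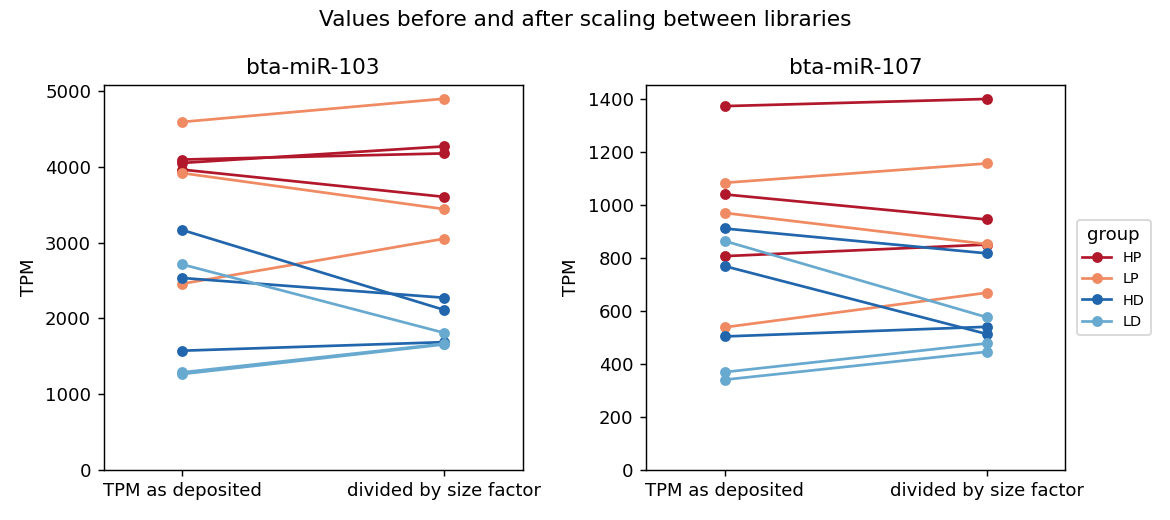
TPM as deposited (left of each panel) and after division by the size factor (right of each panel) for bta-miR-103 and bta-miR-107; each line is 1 of 12 cows, coloured by group. The LD values of bta-miR-103 draw together from 1264 to 2712 TPM into 1655 to 1808 normalized TPM, and the lactation and non-lactating lines separate.

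Both miRNAs were higher in lactation than in the non-lactating period. Mean bta-miR-103 was 3909 ± 668 normalized TPM over the lactation cows and 1866 ± 263 over the non-lactating cows (SD, n = 6). The log2 fold change of bta-miR-103 was 1.06 (SE 0.17, 95% interval 0.70 to 1.42), a 2.09-fold difference, with an adjusted p of 0.000361 in limma. Mean bta-miR-107 was 980 ± 261 normalized TPM against 562 ± 134 (SD, n = 6). Its log2 fold change was 0.79 (SE 0.21, 95% interval 0.34 to 1.24), a 1.73-fold difference, with an adjusted p of 0.00835 in limma. Fold changes throughout are on the log2(normalized TPM + 1) scale, and p-values were adjusted over 388 miRNAs by Benjamini-Hochberg. Because the tissue was bulk, fewer cells of a type and less RNA per cell cannot be told apart in this or any later comparison. Library depth also differed between the stages, with a median of 10732749 reads in lactation and 21208518 in non-lactating libraries. The part of depth in the stage difference was not tested.

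A change between stages was common in this tissue. In the same test 172 of 388 miRNAs (44.3%) passed, with 86 of 388 (22.2%) higher in lactation and 86 of 388 (22.2%) lower. The stages did not overlap for 85 of 388 miRNAs (21.9%), bta-miR-103 among them. An exact two-sided permutation test of the normalized TPM gave p = 0.00216 for bta-miR-103, the smallest that 6 against 6 libraries can give, and p = 0.00433 for bta-miR-107. On deposited TPM the exact permutation p was 0.00866 for bta-miR-103 and 0.0498 for bta-miR-107. Without size factors the limma call of bta-miR-107 was lost (log2 fold change 0.68, adjusted p = 0.0883), while that of bta-miR-103 was kept (0.95, adjusted p = 0.0120).

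The stage difference was also read within each protein class as labelled. In the high protein cows, HP against HD, bta-miR-103 was higher in lactation by a log2 fold change of 1.00 (SE 0.24, limma adjusted p = 0.00768). In the low protein cows, LP against LD, the difference on the log2 scale was 1.12, with an SE of 0.24 and a limma adjusted p of 0.00812. The limma test called 31.2% of the 388 miRNAs in the high protein cows and 22.2% in the low protein cows. For bta-miR-107 the values were 0.77 (SE 0.29, limma adjusted p = 0.0622) in the high protein cows and 0.81 (SE 0.29, limma adjusted p = 0.0663) in the low protein cows, and neither passed. Within each labelled class the stages did not overlap for either miRNA. The only overlap of bta-miR-107 was between a cow of HD and a cow of LP. A separation of 3 against 3 libraries was common, being found for 46.9% of the 388 miRNAs in the high protein cows and 36.1% in the low protein cows. The order of the classes in these labels is uncertain, as given below. With HP and LP exchanged, both of the overlapping cows would fall in the same class. The class-wise values and the interaction therefore hold for the groups as labelled only. The difference between the class-wise stage effects, low minus high protein, was 0.13 for bta-miR-103 (SE 0.33, 95% interval -0.60 to 0.85) and 0.04 for bta-miR-107 (SE 0.41, 95% interval -0.86 to 0.94). Both had a limma adjusted p of 0.993. In limma this interaction passed for 0 of 388 miRNAs (0%), with 20 of 388 at an unadjusted p under 0.05 and a smallest adjusted p of 0.288.

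The protein percentage comparisons asked whether the pair differed between high and low protein cows of the same stage. Neither miRNA passed the threshold in either stage, and all 4 estimates were lower in the libraries labelled as low protein. These signs rest on the column names of the deposited table. In HP vs LP the study's text orders the classes the other way for miRNAs it lists. Which class was the lower is therefore uncertain. In HP vs LP, taken as LP minus HP, bta-miR-103 had a log2 fold change of -0.16 (SE 0.25, 95% interval -0.71 to 0.40, limma adjusted p = 0.858). In the same comparison bta-miR-107 had -0.31 (SE 0.29, 95% interval -0.96 to 0.34, limma adjusted p = 0.716). The study's rule for differentially expressed miRNAs, an unadjusted p under 0.05 with an absolute log2 fold change over 0.8, called 39 of 388 miRNAs (10.1%) here. In HD vs LD, taken as LD minus HD, bta-miR-103 had -0.27 (SE 0.24, 95% interval -0.83 to 0.30) and bta-miR-107 had -0.33 (SE 0.27, 95% interval -0.95 to 0.29), with limma adjusted p-values of 0.993 for both. The same rule called 13 of 388 (3.35%). That count was 36 without replicate 1 of LD, 6 without replicate 2 of HD and 8 without replicate 2 of LD. In HP vs LP the count ranged from 24 without replicate 1 of LP to 53 without replicate 1 of HP. For HD vs LD the difference from the study went beyond direction. The miRNAs called here were not on the study's longer list for that comparison. Whether the HD and LD columns hold the study's groups was not tested. All HD vs LD results are therefore for the groups as labelled. Leaving out size factors moved the median over all 388 miRNAs in HD vs LD from 0.03 to -0.16 on the log2 scale. The intervals of bta-miR-107 and that of bta-miR-103 in HD vs LD reached past a decrease of 0.8, so with 3 cows per group a decrease of that size could not be told from no change.

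The balance between the 2 miRNAs was taken as bta-miR-107 TPM per 100 TPM of bta-miR-103, a ratio that no scaling between libraries can alter. Reads that could be counted to either entry would enter it as well, and their share was not tested. In HP it was 19.9, 33.6 and 26.3 in replicates 1 to 3. In LP it was 21.9, 24.8 and 23.6. The LP cows lay within a narrow band inside the range of HP. In HD the ratio was 24.3, 36.0 and 32.1. In LD it was 31.9, 26.9 and 28.7. The LD cows again lay inside the range of HD, and the protein groups did not separate in either stage. The exact permutation p was 0.6 for HP vs LP and 0.7 for HD vs LD, where 3 against 3 libraries cannot go below 0.1.

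**Figure D3:**
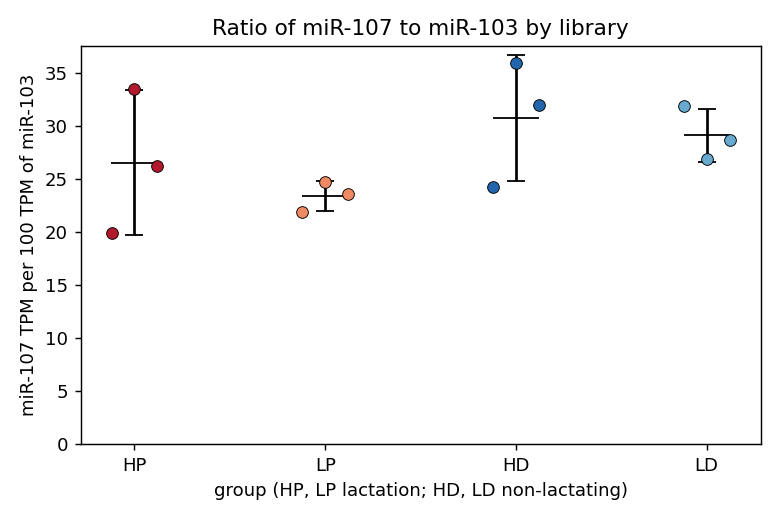
TPM of bta-miR-107 per 100 TPM of bta-miR-103 (vertical axis) in the 4 groups; each point is 1 cow, horizontal lines are means and bars are SD (n = 3). The lactation libraries run from 19.9 to 33.6 and the non-lactating ones from 24.3 to 36.0, with replicate 2 of HP and replicate 1 of HD lying toward the other stage.

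By stage, the ratio averaged 25.01 ± 4.73 over lactation and 29.98 ± 4.18 over non-lactating libraries (SD, n = 6). The difference of -0.27 on the log2 scale, lactation minus non-lactating, did not pass the two-sided exact permutation test (p = 0.0758), and the stages overlapped. The outcome turned on single cows. Without replicate 2 of HP the difference was -0.36 (exact permutation p = 0.0130), and without replicate 1 of HD it was -0.33 (exact permutation p = 0.0433). Both of these cows lay toward the other stage. With any other cow left out the difference did not pass, with exact permutation p-values of 0.0758 to 0.147. The smaller fold change of bta-miR-107 than of bta-miR-103 between stages was therefore not shown to be a difference between the miRNAs.

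Across cows of the same stage the pair tended to move together. Because the stages formed separate clusters of bta-miR-103, correlations of log2 normalized TPM were taken within a stage only, and p-values were adjusted over the 2 stages. Over the 6 lactation libraries Pearson's r was 0.728 (exact permutation p = 0.0972, adjusted p = 0.0972) and Spearman's rho was 0.543 (exact permutation p = 0.297, adjusted p = 0.297). Without replicates 1 and 3 of LP, the cows farthest from the median of bta-miR-103, r was 0.427, so the lactation value rested on those cows. Over the 6 non-lactating libraries r was 0.765 (exact permutation p = 0.0472, adjusted p = 0.0944) and rho was 0.829 (exact permutation p = 0.0583, adjusted p = 0.117). Without replicates 1 and 2 of HD it was 0.844 over 4 libraries. Neither relation passed after adjustment. On deposited TPM, where differences in scaling between libraries remain in both values, Pearson's r was 0.844 over the lactation cows and 0.947 over the non-lactating cows, each with an exact permutation p adjusted to 0.0486. The relation thus passed on that scale and not after normalization. Without the 2 cows farthest from the median the deposited values gave 0.367 and 0.990. The mature sequences differ near the 3′ end, so a read that ends early or has 1 mismatch could be counted to either entry. The share of such reads was not tested.

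**Figure D4:**
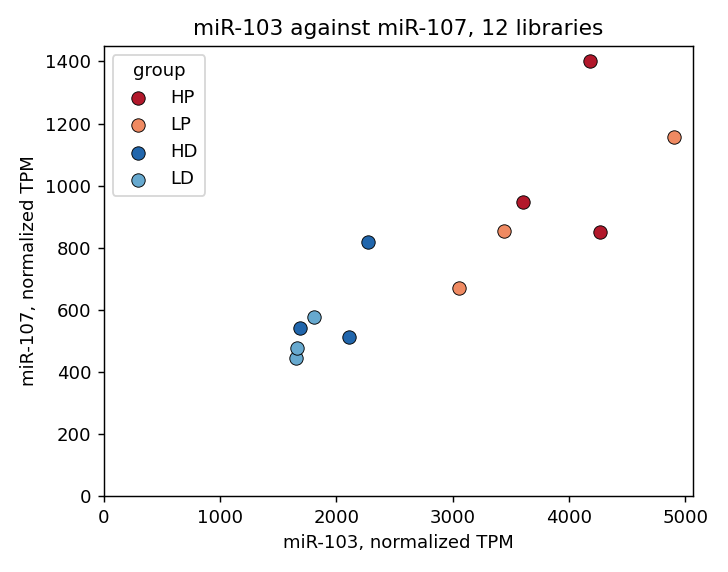
Normalized TPM of bta-miR-103 (horizontal axis) against bta-miR-107 (vertical axis), 1 point per cow, coloured by group. The 6 lactation libraries sit to the right of 3052 and the 6 non-lactating libraries to the left of 2272, so that most of the pooled trend lies between the stages.

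The mature bta-miR-103 was listed under both of its precursors, and these entries were nearly equal. Their means over 12 libraries were 2968 TPM for bta-mir-103-2 and 2964 TPM for bta-mir-103-1. The bta-mir-103-2 entry was the higher in 12 of 12 libraries, by 17 to 127 reads or 0.0549% to 0.287%. Reads of the mature miRNA cannot be assigned to either precursor, so the output of the PANK3 and PANK2 loci could not be told apart. The bta-mir-103-2 entry, having the higher mean, stood for bta-miR-103 in all values above.

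Likeness was measured as Pearson's r of log2 normalized TPM over the 12 libraries, among 233 miRNAs with a mean of at least 10 TPM. It is given as a description, since all points share the difference between stages and the library scaling. Most like bta-miR-103 were bta-miR-345-5p (r = 0.932), bta-miR-2478 (0.914), bta-miR-107 (0.897), bta-miR-139 (0.886) and bta-miR-193a-3p (0.879). Least like it were bta-miR-455-3p (r = -0.933) and bta-miR-411a (-0.928), the latter a member of the large imprinted DLK1-DIO3 miRNA cluster. Most like bta-miR-107 were bta-miR-1839 (r = 0.926), bta-miR-224 (0.901), bta-miR-103 (0.897), bta-miR-339b (0.891) and bta-miR-378c (0.856). Least like it were bta-miR-146b (r = -0.853), known as a target of NF-kB signalling, and bta-miR-16b (-0.844). Each member of the pair was thus among the 5 most like the other. Reads that could be counted to either entry would enter this likeness, and their share was not tested. An r above 0.8 was found for 31 miRNAs with bta-miR-103 and for 6 with bta-miR-107. When each library was taken as its deviation from the mean of its stage, r was 0.743 between bta-miR-103 and bta-miR-107 and 0.858 between bta-miR-107 and bta-miR-1839. The same measure was 0.453 between bta-miR-103 and bta-miR-345-5p and -0.01 between bta-miR-103 and bta-miR-139.

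The pair belongs to the group of miR-15 and miR-107, whose members share a short motif near the 5′ end and repress overlapping sets of cell cycle and survival genes, cyclins and BCL2 among them. Of 8 other listed members of the group 7 were measured, and miR-424 was not analysed here. Between stages 1 of these 7 rose in lactation, 3 fell and 3 did not pass, with a median log2 fold change of -0.63 against -0.01 over all 388 miRNAs, of which 22.2% rose and 22.2% fell in the same test. The member that rose with the pair was bta-miR-15a, which had 984 ± 140 normalized TPM over lactation and 573 ± 98.5 over non-lactating libraries (SD, n = 6). It rose by 0.79 on the log2 scale, with an SE of 0.16 and a limma adjusted p of 0.00208. Of the members that fell, bta-miR-15b had a log2 fold change of -0.99 (SE 0.22, limma adjusted p = 0.00328). For bta-miR-16b it was -0.94 (SE 0.27, limma adjusted p = 0.0143). For bta-miR-503-5p it was -0.66 (SE 0.24, limma adjusted p = 0.0436). The miR-503 cluster is known from regression of the mouse mammary gland after weaning, but bta-miR-503-5p was scarce here, at 0 to 3.02 normalized TPM. The members that did not pass were bta-miR-16a (log2 fold change -0.27), bta-miR-195 (-0.63) and bta-miR-497 (0.46).

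The pair's part of the TPM of this group also differed between stages. Together bta-miR-103 and bta-miR-107 made up 27.6% to 46.1% of the TPM of the measured group in lactation, with a mean of 36.9% ± 8.48 (SD, n = 6). In the non-lactating period they made up 13.1% to 25.7%, with a mean of 19.1% ± 6.09 (SD, n = 6). These ranges did not overlap, and no test was run on this share. The TPM of the group as a whole was 10852 to 17098 across lactation and 12093 to 17016 across non-lactating libraries, with overlap.

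Between protein classes, 1 of the other 7 members passed the study's rule in HP vs LP, where 10.1% of all miRNAs did. This was bta-miR-16a, higher in the libraries labelled LP by a log2 fold change of 1.14 (SE 0.42, limma adjusted p = 0.251), and it is on the list of differentially expressed miRNAs that the study chose on these samples, so its call is not independent evidence, and its sign carries the doubt on direction given above. In HD vs LD 0 of 7 passed in limma, where 3.35% of all miRNAs did, and in the interaction 0 of 7. The study lists bta-miR-16a and bta-miR-195 for HD vs LD. Their log2 fold changes here were 0.23 (SE 0.52) and 0.095 (SE 0.54). The pair and 6 other members did not pass in HP vs LP.

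**Figure D5:**
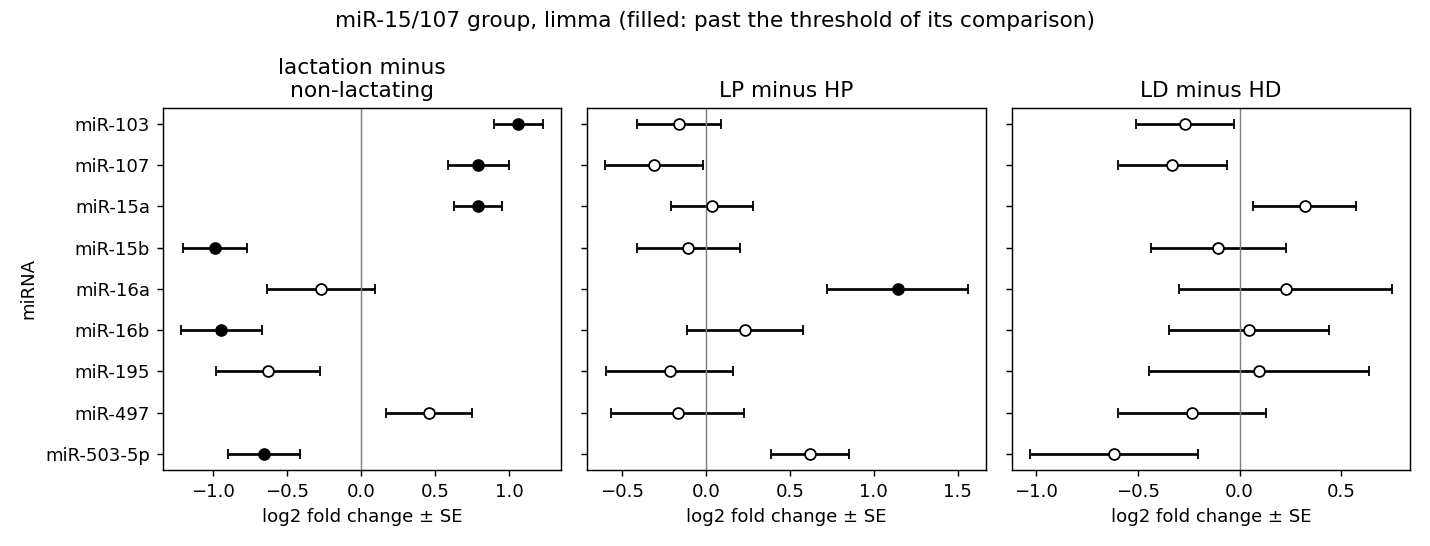
Log2 fold changes (horizontal axes, with SE bars) of bta-miR-103, bta-miR-107 and 7 other members of the group of miR-15 and miR-107 for lactation minus non-lactating (left), LP minus HP (middle) and LD minus HD (right); filled points passed the threshold of that comparison. In the left panel the pair (1.06 and 0.79) and bta-miR-15a (0.79) lie to the right of 0, and bta-miR-15b (-0.99) and bta-miR-16b (-0.94) to the left.

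MiRNAs that mark particular cell types moved with the stage as well. Of 7 epithelial markers, among them the miR-200 family, which maintains the epithelial state, 6 were higher in lactation, and bta-miR-205 was not called (log2 fold change -0.08, limma adjusted p = 0.772). Over all 388 miRNAs the same test called 22.2% higher and 22.2% lower. Their summed level was 32477 to 59998 normalized TPM in the lactation libraries and 17984 to 36874 in the others, and none of the 7 was at 0 in any library of this mammary tissue. Both endothelial markers, the arms of miR-126, were higher in lactation, with sums of 10876 to 16672 against 5438 to 8603. Of 5 leukocyte markers 2 were lower in lactation (5728 to 9087 against 6953 to 14500), as were 2 of 3 fibroblast markers (8364 to 13563 against 10237 to 19502). No red blood cell marker of 3 (823 to 2536 against 278 to 8023) and no muscle marker of 4 measured (62006 to 148861 against 52933 to 294110) was called. No measured marker of these lists was at 0 in any library.

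Set against the summed epithelial markers, the stage difference of the pair was small. The level of bta-miR-103 was 5.09% to 10.6% of that sum across lactation and 4.51% to 11.9% across non-lactating libraries. The log2 difference was 0.22, with a two-sided exact permutation p of 0.392. For bta-miR-107 the shares were 1.11% to 3.43% and 1.29% to 4.27%, with a log2 difference of -0.05 and an exact permutation p of 0.890. Relative to these markers the stages overlapped for both miRNAs. This comparison was chosen after the data were seen. Since 6 of the 7 markers were themselves higher in lactation, the ratio cannot show the part of cell composition in the stage difference, which was not tested.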

How the data were processed

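Small RNA of 18 to 30 nt was sequenced from 12 mammary biopsies. Per the study's methods, the authors trimmed reads with Cutadapt 2.8 and Trimmomatic 0.36, mapped them with Bowtie 1.1.1 to ARS-UCD1.2 allowing 1 mismatch, and matched them to miRBase 22.0. The authors deposited TPM values, which are reads scaled to the library total (RPM) per precursor entry. Each entry exceeded 0.5 TPM in at least 2 libraries. The authors' own tests used DESeq2 on counts, which were not used here. Depth was inferred from value steps, and at least 99.5% of values were whole reads within 0.1 read.

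For each mature miRNA the precursor entry with the highest mean was kept. After scaling by size factors (median of ratios), log2(value + 1) was fitted with limma 3.58.1 (trend, empirical Bayes) in R 4.3.3. The method was tried on simulated data with independent noise and no scaling differences between libraries, so that trial did not cover the effects of scaling. HP vs LP and HD vs LD used 6 libraries each, and stage and interaction used 12. Stage calls required an adjusted p under 0.05. The miRNAs named were the pair, the group of miR-15 and miR-107, the 5 most and 2 least like each member, and cell type markers. The pair was chosen by name and not by its values, but it and the lists were chosen with earlier results of these data known. Replicates were separate cows. Replicate numbers were not taken as pairs. No 2 libraries were identical. Mature sequences were not used here.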

Additional observations from a re-analysis of the deposited data

Results flagged for a closer look

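The deposited TPM of bta-miR-103 in replicate 1 of LP was 2457, and it lay far below the other 5 lactation libraries (3919 to 4595 TPM) for a set of that size. After division by its size factor of 0.805 it was 3052 normalized TPM and no longer stood apart.

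The normalized TPM of bta-miR-107 in replicate 2 of HD was 818, far above the other 5 non-lactating libraries (446 to 577). The same library had the highest bta-miR-103 of the non-lactating period, at 2272 normalized TPM, and the highest ratio of the pair, at 36.0. Groups of 3 were too small for this screen, so the 6 libraries of a stage were screened as a set, and such a screen also marks some sets by chance.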

How the results depend on the processing

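The stage calls of bta-miR-103 (0.98 to 1.15) and bta-miR-107 (0.68 to 0.90) held with each library left out in turn. The call of bta-miR-107 was lost without size factors (0.68), and relative to the epithelial markers, a comparison added after the data were seen, the stage differences were 0.22 for bta-miR-103 and -0.048 for bta-miR-107. With each library left out, the interaction ranged from -0.056 to 0.26 for bta-miR-103 and from -0.21 to 0.25 for bta-miR-107, which was -0.032 over miRNAs of at least 10 TPM. The log2 ratio of the pair ranged from -0.36 to -0.21 by stage, from -0.34 to 0.034 in HP vs LP and from -0.22 to 0.060 in HD vs LD. With a library left out, HP vs LP ranged from -0.33 (without replicate 3 of LP) to -0.01 (without replicate 1 of LP) for bta-miR-103, and from -0.49 (without replicate 3 of LP) to -0.09 (without replicate 2 of HP) for bta-miR-107. HD vs LD ranged from -0.40 to -0.18 and from -0.44 to -0.12, with the smallest sizes without replicate 2 of HD, and was -0.505 and -0.567 without size factors. No interaction, HP vs LP or HD vs LD value was called in any of these. Without size factors the relation of the pair was 0.844 in lactation and 0.947 for the non-lactating cows, and both passed. With size factors the latter was 0.844 over 4 libraries, which were too few to test. The cause of these shifts was not tested. With the replicate block the stage values were 1.06 and 0.79, and no call changed. Same-numbered libraries of HP and LP did not deviate together (r of -0.26 to 0.01, 0 of 6 libraries closest to their own number). Of HD and LD, numbers 1 and 3 did (r = 0.55 and 0.50) and number 2 did not (-0.11), with 4 of 6 libraries closest to their own number. Since not every pair did and the cows were different animals, the numbers were not taken as pairs. Without size factors the calls of HD vs LD went from 13 to 3. Count-based alternatives were not run, since counts were not used here.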
